A study of Rattus norvegicus with 5 samples.

Results

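Claudin transcripts were examined in FRT cells, a thyroid epithelial line of the Fischer rat, grown as 3D follicles or as 2D monolayers. The 10 genes described are Cldn1, Cldn2, Cldn3, Cldn4, Cldn6, Cldn7, Cldn8, Cldn9, Cldn12 and Cldn23, out of 15154 genes that could be named on the arrays. They were picked by name, with earlier results of these data known. The RefSeq accession of each probe was matched to a rat symbol, and all 10 were measured, by 12 probes. In 3D, single cells were embedded in Matrigel, a basement membrane extract, and grew into hollow follicles. In 2D the same cells formed a monolayer. RNA was taken on day 5. The 3D group held 4 separate cultures, each labelled with Cy5 on its own Agilent 2-colour array, and was set each time against Cy3-labelled RNA of 1 pool that combined 4 2D cultures. In a dye-swapped array the 3D cultures, pooled and carrying Cy3, were set against this 2D pool in Cy5. All groups are the same unmodified cell line. Because the 2D side was 1 pool, the spread between 2D cultures was not measured, and the swapped array holds RNA of the same cultures and is no separate replicate.

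In an epithelium, claudins polymerize into strands that close the paracellular space, and the mix of family members sets how tight the seal is and which ions pass. Some members, such as claudin-1, claudin-3 and claudin-4, are known mainly as barrier formers, whereas claudin-2 forms a pore for small cations and water. In a thyroid follicle the tight junction separates the lumen, where hormone precursor is stored, from the side that faces the blood.

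The sequence before the transcription start is shown for 3 claudins on which the results turn, namely the one with the largest change, the one that rose and the one that varied most between 3D cultures. Each is the 250 bases upstream of the start as annotated by RefSeq on the build GRCr8, at chr12:27346548-27346797 on the minus strand for Cldn3, at chr11:87926126-87926375 on the plus strand for Cldn1 and at chr10:55188420-55188669 on the plus strand for Cldn7. Capitals mark the E-box CACCTG, read on both strands (CAGGTG on the other), a motif bound by the Snail and ZEB families of repressors.
Cldn3: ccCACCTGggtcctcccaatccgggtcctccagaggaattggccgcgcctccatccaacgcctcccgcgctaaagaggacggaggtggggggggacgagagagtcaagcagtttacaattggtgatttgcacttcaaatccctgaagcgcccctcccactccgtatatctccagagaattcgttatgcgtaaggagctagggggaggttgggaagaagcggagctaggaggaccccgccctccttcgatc
Cldn1: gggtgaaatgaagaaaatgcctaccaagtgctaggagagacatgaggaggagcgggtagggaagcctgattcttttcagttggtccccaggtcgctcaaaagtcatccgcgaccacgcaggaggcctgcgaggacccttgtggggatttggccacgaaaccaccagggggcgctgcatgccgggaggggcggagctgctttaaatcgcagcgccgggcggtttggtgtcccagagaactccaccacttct
Cldn7: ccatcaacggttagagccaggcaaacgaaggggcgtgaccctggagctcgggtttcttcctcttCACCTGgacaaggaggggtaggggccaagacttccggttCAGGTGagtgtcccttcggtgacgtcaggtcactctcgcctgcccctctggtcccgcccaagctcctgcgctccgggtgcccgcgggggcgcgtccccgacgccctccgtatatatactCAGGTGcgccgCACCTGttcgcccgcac
The E-box stood 1 time in the Cldn3 stretch, 0 times in that of Cldn1 and 4 times in that of Cldn7. Of 27455 rat promoter stretches of the same length, 15.6% held it at least once and 0.0328% at least 4 times. It occurred 3 times upstream of Cldn6, and 0.244% of stretches held 3 or more. Cldn8 and Cldn12 had none. The GC box GGGCGG, read on both strands (CCGCCC on the other), was found 2 times upstream of Cldn1 and 1 time each upstream of Cldn3, Cldn6 and Cldn7, and in 32.4% of all stretches. Cldn2, Cldn4, Cldn9 and Cldn23 had no entry in the table. A match is a run of letters and was not tested as a binding site. Of the listed repressors that bind E-boxes, Snai1, Snai2, Zeb2 and Twist1 had probes, and none of these 4 was well above background on any array. Zeb1, also listed, was not measured. Repression of claudins through the E-box was not tested.

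On the 5 arrays, which shared 1 slide, each carried 58717 spots other than controls, and 0 were saturated. The share of probes that passed the scanner software's test of lying well above background was 45.9% to 49.8% for 3D RNA and 43.7% to 48.7% for 2D RNA. Log2 ratios of 3D over 2D correlated across genes, which are not independent replicates, with r from 0.871 to 0.946 between replicate arrays, and with r from 0.734 to 0.765 between the swapped array and these. Of the epithelial markers, 5 of 5 (Cdh1, Epcam, Krt8, Krt18 and Krt19) were well above background on every array in both conditions. Of 8 thyroid follicular markers, Pax8 and Hhex were well above background on every array, and Foxe1 in 3D on 4 arrays and in 2D on 5. Tg, Tshr, Nkx2-1 and Slc5a5 were above background on no array, among them the genes of thyroglobulin, the TSH receptor and the iodide transporter. In cultures of this kind, fewer cells with a transcript and less of it per cell cannot be told apart.

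FRT cells expressed 7 of the 10 claudins in both conditions. Cldn1, Cldn3, Cldn4, Cldn6, Cldn7, Cldn12 and Cldn23 were well above background on all 5 arrays in the 3D channel and on all 5 in the 2D channel, a state shared by 48.7% of genes. A probe was counted on an array where most of its spots passed that test. Cldn8, a barrier claudin of the distal nephron, was above background in 3D on 1 array and in 2D on none. Cldn2 and Cldn9 were above background on no array in either condition. Where any passing spot was enough, Cldn8 counted in 3D on 4 arrays and Cldn9 in 2D on 1, and 9 of the 10 were then detected somewhere. Of the 15 other claudins with a probe, only Cldn19, a kidney and nerve claudin, was above background, on all 5 arrays in both conditions. Cldn5, the claudin of endothelium, Cldn18, of lung and stomach, and Cldn16, of the thick ascending limb, were among the 14 that were not. Over all 25 claudins with a probe, 8 were above background on all 5 arrays in both conditions. The 10 were chosen with earlier results of these data known, so the share of them detected is no result about the family.

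**Figure D1:**
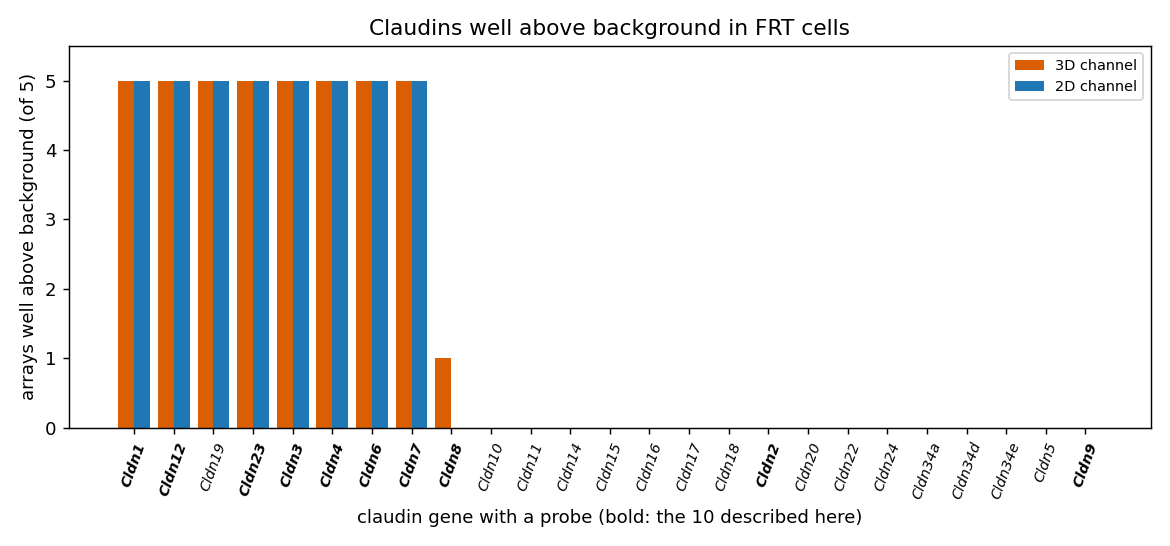
Number of arrays, of 5, on which each of 25 claudins was well above background in the 3D channel (orange, left) and in the 2D channel (blue, right); bold names are the 10 described. Bars reach 5 in both channels for 8 claudins, Cldn8 reaches 1 in 3D, and the other 16 have no bar.

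Of the 10 claudins, 4 passed the test at an adjusted p under 0.01 (limma over all 15154 genes, Benjamini-Hochberg), 3 of them lower and 1 higher in 3D. Across the arrays 25.9% of genes passed, 11.5% lower and 14.4% higher in 3D, and among the 8608 genes above background in either condition 45.5% passed. Read against these shares, the number of claudins that passed is no result about the family as a whole. Their median log2 fold change was -0.04, against 0.00 over all genes. Counted by probe, 4 of 12 passed, against 22.0% of all probes. The members differed in direction, with Cldn3, Cldn23 and Cldn4 lower, Cldn1 higher and the rest not passing. Where each array's ratios were only centred on their median, in place of loess, 0 of the 10 passed, as against 7 of all genes. Cldn3 then read -0.81 (limma adjusted p = 0.21), Cldn23 -0.23 (0.531) and Cldn4 0.04 (0.926). Under the other alternatives these 3 passed, with adjusted p no higher than 0.00397.

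**Figure D2:**
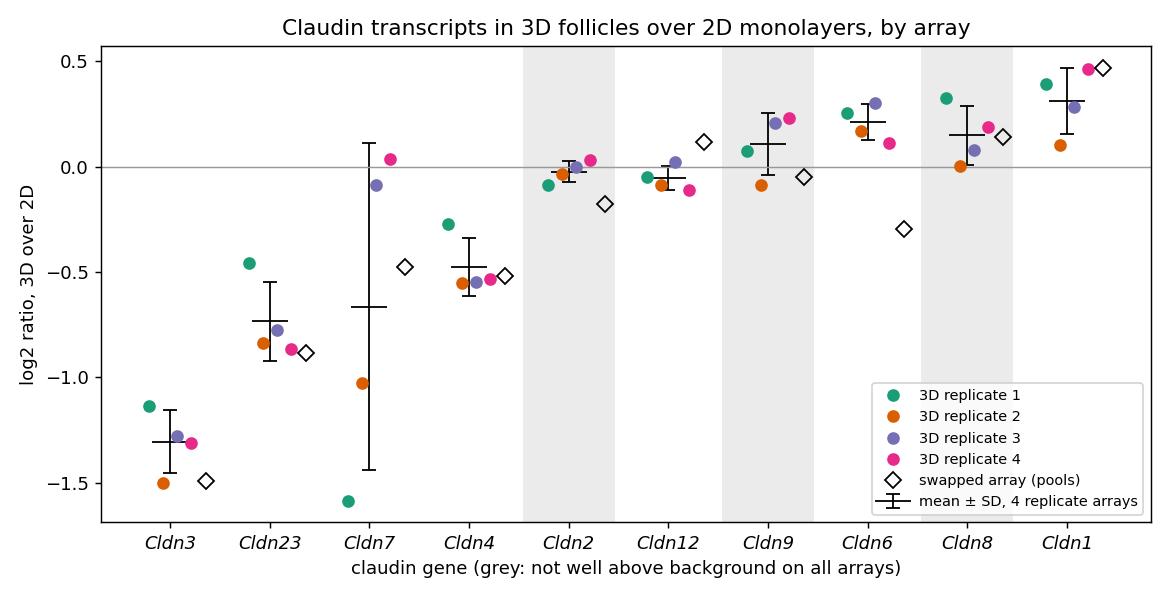
Log2 ratio of 3D over 2D for the 10 claudins, ordered by fitted change. Dots are the 4 replicate arrays, the bar with whiskers their mean ± SD, and diamonds the swapped array; grey marks claudins that were not well above background on all arrays. Cldn3, Cldn23 and Cldn4 lie below 0 on every array, Cldn1 above 0 on every array, and Cldn7 spreads between -1.59 and 0.04.

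Cldn3, a barrier-forming claudin of many simple epithelia, fell most. On the normalized log2 scale its signal was 10.18, 9.68, 9.72 and 9.72 in the 4 3D cultures, against 11.32, 11.18, 11.002 and 11.03 in the 2D pool on the same arrays. The swapped array gave 9.89 for the 3D pool and 11.38 for the 2D pool. No 3D value reached the lowest 2D value. The 2D values are repeated reads of 1 pool. The share of all genes with such a gap was not counted, here or for the claudins below. The log2 ratios of 3D over 2D were -1.13, -1.50, -1.28 and -1.31 in replicates 1 to 4 and -1.49 on the swapped array. The mean of the 4 cultures was -1.31 ± 0.15 (SD, n = 4), and the fit over 5 arrays gave -1.34 (SE 0.06), a level 2.54-fold lower in 3D, with a limma adjusted p of 2.44e-07. The 95% interval ran from -1.48 to -1.21.

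Cldn23, a less studied member known from intestinal epithelium, fell by 0.76 on the log2 scale (SE 0.06, limma adjusted p = 1.24e-05), a level 1.70-fold lower in 3D. Its signal was 10.27, 9.75, 9.78 and 9.66 in the 3D cultures, against 10.73, 10.59, 10.56 and 10.53 in the 2D pool, and the pools of the swapped array gave 9.80 in 3D and 10.69 in 2D. Every 3D value lay below every 2D value. By ratio, replicate 1 showed the smallest difference, -0.46, and the other cultures gave -0.84, -0.77 and -0.86, with -0.88 on the swapped array.

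Cldn4, a barrier claudin that also binds Clostridium perfringens enterotoxin, as claudin-3 does, fell by 0.48 (SE 0.05, limma adjusted p = 5.87e-05), a level 1.40-fold lower in 3D. The 3D cultures had 11.44, 11.36, 11.25 and 11.39, against 11.71, 11.91, 11.80 and 11.92 for the 2D pool, and the swapped array 11.35 for the 3D pool and 11.87 for the 2D pool. The conditions did not overlap, though the 2D side is 1 pool and the share of all genes with such a gap was not counted. Replicate 1 again had the smallest difference, with a log2 ratio of -0.27, while replicates 2 to 4 gave -0.55, -0.55 and -0.54 and the swapped array -0.52. Cldn3 and Cldn4 lie next to each other in the rat genome, with no protein-coding gene between them, and the levels of both were lower in 3D.

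Cldn1, the claudin that seals the epidermis, was the member that rose, by 0.34 on the log2 scale (SE 0.06), or 1.27-fold, with a limma adjusted p of 0.00127. The 3D cultures had 11.51, 11.27, 11.46 and 11.65, against 11.12, 11.16, 11.17 and 11.19 in the 2D pool, and the swapped array gave 11.51 for the 3D pool and 11.04 for the 2D pool. All 3D values lay above all 2D values, replicate 2 by the least. Log2 ratios were 0.39, 0.10, 0.29 and 0.46, and 0.47 on the swapped array. The array prints this probe 10 times, against 1 or 2 times for the other claudin probes, and the SD of its log2 ratio between spots was 0.0548 to 0.112 per array, below the SD of 0.16 between cultures. The fitted value moved little with a normexp offset of 0 (0.33, limma adjusted p = 0.029) and with the scanner software's processed signals (0.34, 0.0167), and larger with ratios centred on the median in place of loess (0.87, 0.154), but in none of these did it pass. Over all alternatives its adjusted p ranged between 0.000639 and 0.154.

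**Figure D3:**
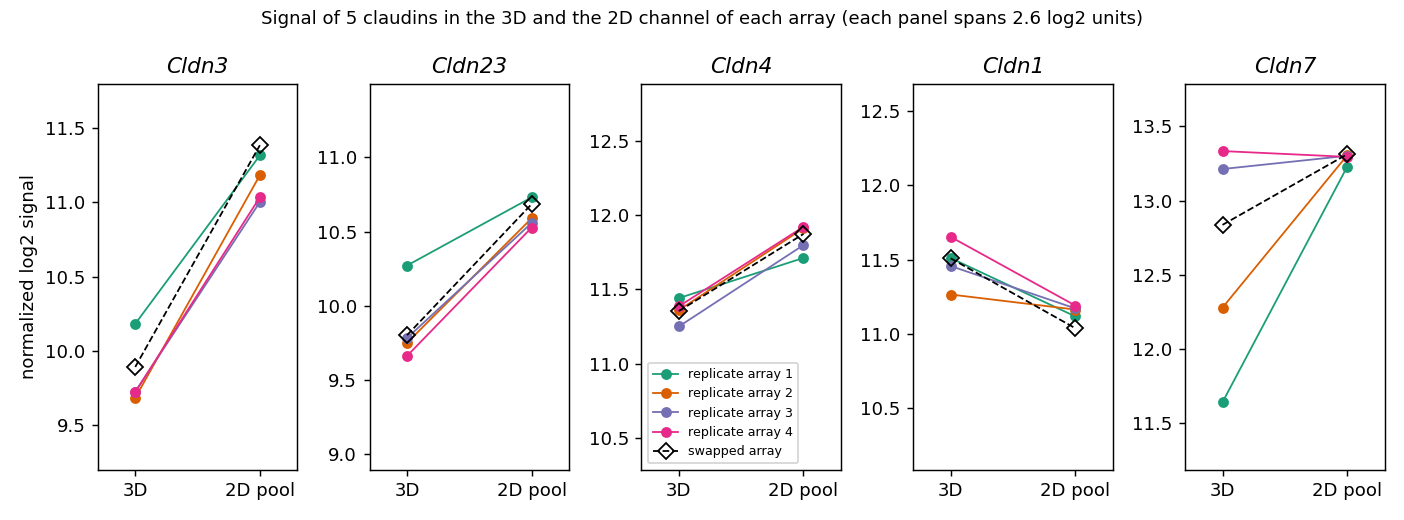
Normalized log2 signal of 5 claudins in the 3D channel (left) and the 2D channel (right) of each array, joined by a line per array; dashed lines with diamonds are the swapped array. The lines rise toward 2D for Cldn3, Cldn23 and Cldn4 and fall for Cldn1; for Cldn7 the 2D values stay near 13.3 while the 3D values run between 11.64 and 13.33.

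Cldn7, a claudin of the lateral membrane that binds EpCAM, was low in 3D replicates 1 and 2 and close to the monolayers in replicates 3 and 4. Its signal was 11.64, 12.28, 13.21 and 13.33 in the 3D cultures, against 13.23, 13.30, 13.30 and 13.29 in the 2D pool. The conditions overlapped, through replicate 4. The SD was 0.803 over the 3D channels, against 0.0367 over the 2D channels, which carried the same RNA each time. The log2 ratios were -1.59, -1.03, -0.09 and 0.04, with a mean of -0.67 ± 0.78 (SD, n = 4), and the fit gave -0.63 (SE 0.20, limma adjusted p = 0.0400), which did not pass. Leaving out 1 culture in turn gave -0.79 to -0.39, with adjusted p between 0.0194 and 0.149. Only 3 of 7384 genes that were above background on all arrays in both conditions varied more between the 3D cultures, where the median SD was 0.0892 and the 95th percentile 0.218. Duplicate spots of the probe differed by an SD of at most 0.0876 on an array. The swapped array, which holds a pool of the 3D cultures, read -0.48, and the average of the 4 cultures on the linear scale corresponds to -0.52. With the values that the authors deposited as log2 ratios, the 4 cultures gave -1.65, -1.08, -0.12 and -0.01, and with the scanner software's processed signals -1.62, -1.07, -0.14 and 0.01. With median centring in place of loess they gave -0.79, -0.21, 0.86 and 0.99, with -1.59 on the swapped array, so that replicates 3 and 4 lay above the 2D pool, and the fit gave -0.15 (limma adjusted p = 0.76). Replicates 1 and 2 stayed below replicates 3 and 4 in each of these settings.

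Levels of listed cell type markers across the 3D cultures are given beside Cldn7, whether or not they moved with it. Of 6 fibroblast markers, 4 were above background on at least 1 array, and Dcn and Pdgfrb on none. The summed signal of all 6 on the linear scale was 739.6, 724.9, 615.3 and 611.9 in replicates 1 to 4. It ranged from 611.9 to 739.6 in the 3D channels and from 557.6 to 577.4 in the 2D channels. Each sum counts every listed gene, also those at background, whose signal the normexp offset of 50 holds above 0. Sums of dim lists thus hold much background signal and are no measure of cell number. Col3a1, a fibrillar collagen, had log2 ratios of 1.09, 0.78, -0.07 and -0.10, high where Cldn7 was low, whereas Pdgfra, a receptor of fibroblasts, had 0.62, 0.56, 0.53 and 0.58. Col1a1, another fibrillar collagen chain, had 0.01, 0.22, 0.07 and 0.16, lowest in replicate 1, and Col1a2 had -0.25, -0.20, -0.17 and -0.14 and was above background in 2D on 1 array and in 3D on none. Of 5 leukocyte markers, Cd14 alone was above background, with -0.10, 0.17, 0.58 and 0.57, low where Cldn7 was low. On the swapped array Cd14 read -0.20, and its fitted 0.20 did not pass (limma adjusted p = 0.228). The summed signal of the leukocyte list was 881.8 to 1363 in 3D and 931.5 to 1084 in 2D. Ptprc, Cd68, Cd3e and Itgam were above background on no array. Of 5 endothelial markers, Cdh5 was above background on 1 array in 3D, and the list summed to 326.9 to 347.1 in 3D and 331.6 to 347.8 in 2D. Thyroid follicular markers summed to 6380, 8145, 7941 and 7890 in replicates 1 to 4, lowest in replicate 1. The range was 5966 to 8145 in 3D and 4259 to 5823 in 2D. The lowest 3D value, 5966, was that of the pool on the swapped array. Among these 8 markers Pax8 alone passed, higher in 3D by 0.71 (limma adjusted p = 0.0013). Its ratios were 0.65, 1.02, 0.91 and 0.91 in the cultures and 0.05 on the swapped array. The other 7 did not pass, and the median log2 fold change of the 8 was 0.004. Epithelial markers summed to 23950, 22540, 22500 and 23450 in replicates 1 to 4, with a range of 22500 to 26990 in 3D and of 22220 to 24790 in 2D. The part of these markers in the Cldn7 values, and in the differences of the other claudins between 3D and 2D, was not tested.

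**Figure D4:**
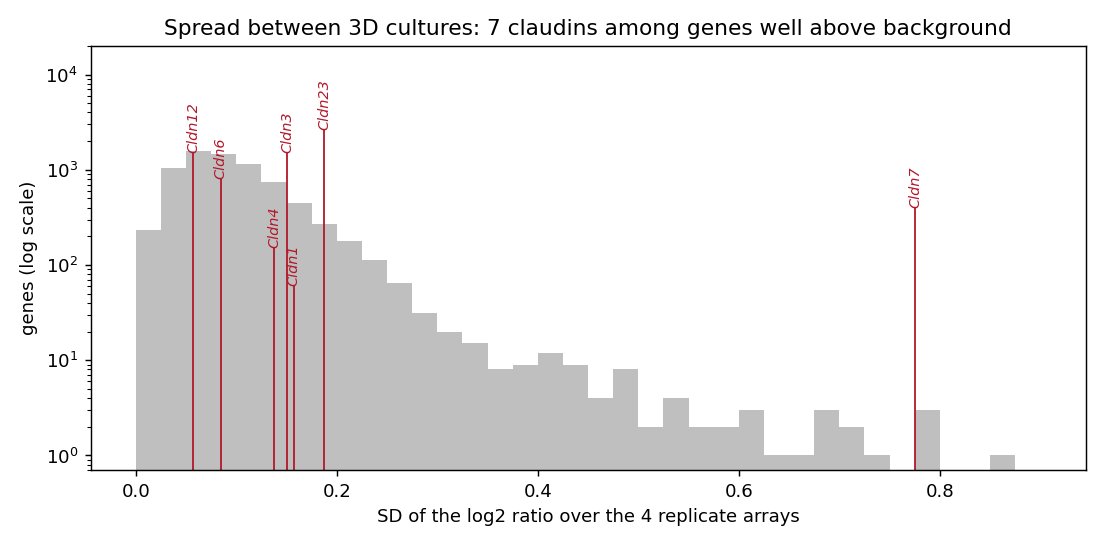
Number of genes (log scale) by the SD of their log2 ratio over the 4 replicate arrays, for genes well above background on all arrays in both conditions; red lines mark the 7 claudins among them. Cldn7, at 0.78, stands in the far tail, and the other 6 lie at 0.19 or below.

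Genes with the ratios most like those of Cldn3 over the 5 arrays, by Euclidean distance among 7384 genes, were Sesn2, a stress-induced sestrin (distance 0.187), Sapcd2, a regulator of spindle orientation (0.224), and Ccnb1, the mitotic cyclin B1 (0.274). For Cldn7, chosen after its values were seen, the nearest were Tap2, a peptide transporter subunit (0.58), Rnd1 (0.678), and Rab5c, an early endosome GTPase (0.721). Tap2 had log2 ratios of -1.63, -0.49, -0.09 and -0.15, so its replicate 2 stood closer to replicates 3 and 4 than that of Cldn7 did. Each of these distances is larger than those for Cldn3.

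Cldn6, a claudin of embryonic epithelia, was the member whose call rested on the swapped array. Its log2 ratios were 0.25, 0.17, 0.30 and 0.11 in the 4 cultures but -0.30 on the swapped array, and the fit gave 0.11 (SE 0.08, limma adjusted p = 0.36). In Cy5 it read higher whichever RNA carried that dye. Without the swapped array the value was 0.21 with an adjusted p of 0.00327, past the threshold (range over all alternatives 0.00327 to 0.713), and with a term for the dye it was -0.04, beside a dye effect of 0.25 (adjusted p = 0.0174). At the same threshold 1.90% of genes had a dye effect, and 0 of the 10 claudins did. The average of the 4 cultures on the linear scale corresponds to 0.21 for Cldn6, against the -0.30 read on the swapped array.

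Cldn12, which lacks the usual scaffold-binding tail of claudins, gave ratios between -0.11 and 0.02 in the 4 cultures and 0.12 on the swapped array. Its fitted value was -0.02 (95% interval -0.12 to 0.08, limma adjusted p = 0.786). Signal was low, with a mean over the 4 replicate arrays of 6.73 in 3D and 6.79 in 2D, and ratios of dim probes are compressed. With the scanner software's processed signals, which carry no offset, Cldn12 read -0.14 (limma adjusted p = 0.389). A second Cldn12 probe was above background on no array, with ratios from -0.08 to 0.10.

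The 3 claudins at or under background gave small ratios, whose size is compressed near background. Cldn8 had signals of 6.36, 6.23, 6.32 and 6.45 in 3D, against 6.03, 6.22, 6.24 and 6.26 in 2D, and the conditions overlapped. Its fitted change of 0.15 did not pass (95% interval 0.03 to 0.26, limma adjusted p = 0.0537). With the scanner software's processed signals, which carry no offset, Cldn8 read 1.42 with an adjusted p of 0.00367, where all alternatives ranged between 0.00367 and 0.658. Cldn9, a claudin of the inner ear that neighbours Cldn6 with no protein-coding gene between, had ratios from -0.09 to 0.23 and a fitted 0.08 (adjusted p = 0.368 in limma). For Cldn2, the cation pore, the brighter of 2 probes had ratios from -0.09 to 0.03 in the cultures (fitted -0.05, limma adjusted p = 0.414) and the other from -0.07 to 0.30. Cldn19 had ratios of -0.22, -0.16, -0.12 and 0.01, with -0.33 on the swapped array, and its fitted -0.17 did not pass (limma adjusted p = 0.0338). Its other probe read -0.23, with an adjusted p of 0.00871 over all probes. None of the 15 other claudins passed by its brightest probe, while Cldn14 and Cldn19 had an unadjusted p under 0.05. With a term for the dye, Cldn19 passed at -0.23 (limma adjusted p = 0.00642).

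Among proteins that share the junction with claudins, more of those that passed were higher than lower in 3D. Of 34 listed, 27 were measured, 13 were higher in 3D, 3 lower and 11 did not pass, with a median log2 fold change of 0.13 against 0.00 over all genes. Among all genes 14.4% were higher and 11.5% lower, and among those above background in either condition, as 23 of the 27 were, 45.5% passed. Ocln, the junction protein occludin, rose by 0.88 (SE 0.06, limma adjusted p = 4.08e-06), with ratios of 0.87, 0.92, 0.90 and 1.08 in the cultures and 0.62 on the swapped array. F11r, the adhesion molecule JAM-A, rose by 0.63 (adjusted p = 1.98e-06 in limma), and Pard3, a polarity scaffold, by 0.49 (0.00029). Ybx3, a transcription factor held at tight junctions, fell by 0.82 (limma adjusted p = 5.53e-06), Esam, an adhesion molecule first known from endothelium, by 0.48 (1.75e-05), and Crb3, an apical polarity protein, by 0.17 (0.00838). Tjp1 and Tjp3, scaffolds that anchor claudins to actin, had values of 0.10 and 0.06 and did not pass. In these same arrays Ocln was thus higher on every array on which Cldn3 and Cldn4 were lower.

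Of 30 listed partners and regulators of claudins, 27 were measured, 9 were higher, 2 lower and 16 did not pass, with a median of 0.04, beside the same shares of 14.4% higher and 11.5% lower over all genes. Above background in either condition were 20 of the 27, a class in which 45.5% of genes passed. Elf3, an ETS factor of epithelia, rose by 1.82 (SE 0.09, limma adjusted p = 3.87e-07), with ratios of 1.41, 2.02, 1.82 and 1.77 and 2.08 on the swapped array. Spint2, an inhibitor of the membrane proteases that cleave EpCAM, rose by 0.87 (limma adjusted p = 3.65e-07), and Grhl2, which in mouse epithelia activates Cldn3 and Cldn4, by 0.62 (6.7e-06). Grhl2 was higher, with ratios from 0.57 to 0.75 in the cultures, in the same 3D samples in which both of these claudins were lower. Any effect of Grhl2 on these claudins was not tested. Epcam, the partner of claudin-7, rose by 0.28 (limma adjusted p = 0.00926), and its ratios were 0.24, 0.18, 0.17 and 0.21 in the cultures, which did not follow the spread of Cldn7, and 0.63 on the swapped array. Cd151, a tetraspanin, fell by 0.36 (limma adjusted p = 0.0027).

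**Figure D5:**
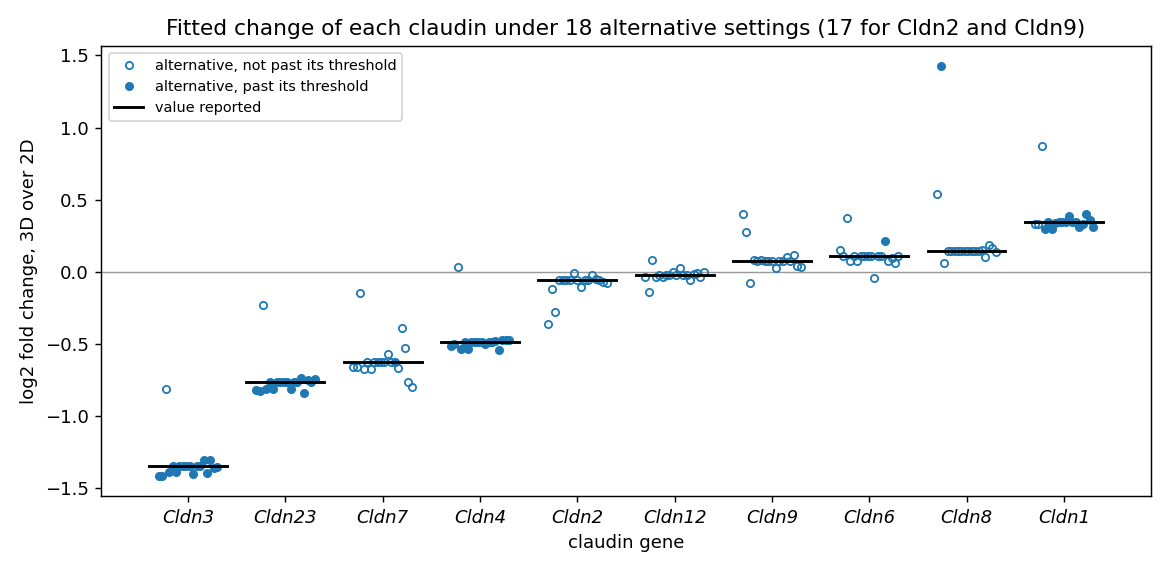
Fitted log2 fold change of 3D over 2D for each claudin (black line) and under 18 alternative settings (17 for Cldn2 and Cldn9); filled circles passed the threshold of that setting and open circles did not. Cldn3, Cldn23 and Cldn4 passed in 17 of 18, and Cldn1 in 15 of 18.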

How the data were processed

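The authors deposited spot intensities, read by Agilent Feature Extraction 10.7.3.1 per the file headers, and median spot and background signals were used. The deposited log10 ratios (Cy5 over Cy3) served to check dye direction. The authors' value table holds log2 ratios made with normexp, loess and quantiles in limma, and all 5 columns run 3D over 2D (medians -0.0064 to 0.0011).

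In R 4.3.3 with limma 3.58.1, background was corrected by normexp (offset 50), ratios were normalized by loess and average intensities by quantiles, outlier spots (1.12% to 1.6%) were left out, and spots of a probe were averaged. Of 30367 probes, 17998 (59.3%) matched a RefSeq symbol, giving 15154 genes, each read from its brightest probe. The offset compresses ratios of dim probes. The swapped array had its sign turned and was counted in the fit as 1 of 5 separate arrays, though it is no separate replicate. The SEs, intervals and p-values rest on that count and hold no spread between 2D cultures. A linear model with 1 coefficient was fitted with eBayes (prior 5.12 degrees of freedom), with Benjamini-Hochberg adjustment at 0.01, and was tested on simulated data. An exact two-sided sign test over 4 cultures could not go below 0.125. The number of arrays limits the precision. Sequences are from RefSeq (GRCr8), while the arrays were designed on rn4.

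Members and gene lists were chosen with earlier results of these data known. Named are all members, other claudins above background, at most 3 that rose and 3 that fell in each list, and the 3 profiles nearest Cldn3. Other list genes, Cldn14 and the profiles nearest Cldn7 were named after their values were seen. Alternatives covered the background offset, normalization, source of ratios, dim-gene filter, outliers, probe choice, dye term, variance trend, threshold and arrays left out. Some listed genes are not reported here.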

Additional observations from a re-analysis of the deposited data

Results flagged for a closer look

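Cldn4 in 3D replicate 1 stood apart from the other replicate arrays, with a log2 ratio of 3D over 2D of -0.27, against -0.55, -0.55 and -0.54 in replicates 2 to 4. A gap large enough to be flagged arises by chance in about 1 in 20 groups, and 12 claudin probes were examined. That rate belongs to the cutoff for flagging, which the gap of Cldn4 exceeded. The same culture also gave the smallest difference of the 4 for Cldn23 and Cldn3, at -0.46 and -1.13. Without it, Cldn4 read -0.54 and still passed. The cause was not tested.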

How the results depend on the processing

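Each claudin was refitted under 18 alternatives, 17 for Cldn2 and Cldn9, which a filter on dim genes removed. The number of claudins that passed was 4, or within 1.5 times that, in 17 of 18. Genes called numbered 2222 with a normexp offset of 0 and 7, all higher in 3D, with median centring in place of loess, against 3918. Members called were 0 with median centring. The other tight junction list had 9 called with offset 0 and 0 with median centring, against 16, and the list of partners and regulators 5, 0 and, with processed signals, 7, against 11. The direction turned for Cldn4 (0.036), Cldn9 (-0.079) and Cldn12 (0.083) with median centring, for Cldn12 with the mean of probes (0.0018) and the dye term (0.031), and for Cldn6 with the dye term (-0.043). The cause was not tested. Leaving out 1 culture gave 3006 to 3312 genes and 4 members called, 12 to 13 and 9 in the lists, and -0.032 to 0.0013 for Cldn12. No paired analysis was possible because the 2D side is 1 pool. Dim claudins are limited by signal over background.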
